A study of Homo sapiens with 6 samples.

Results

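Collagen genes were examined in the mitotic transcriptome of ERRAS cells, with and without activation of oncogenic Ras. Every entry of the expression table whose symbol has the form COL, a type number, A and a chain number was taken, and 50 of its 63009 entries with 6 values met this rule. They stand for 44 gene symbols, since COL11A2 has 7 entries. Of the 44 genes, 24 averaged 1 FPKM or more across the 6 libraries and are described here. FPKM counts the fragments of a gene per length of transcript and per mapped fragments of its library, so that levels can be compared between genes.

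ERRAS cells are IMR90 fibroblasts, a primary line from fetal lung, that stably carry H-RasV12 fused to the ligand-binding domain of the estrogen receptor, introduced by retrovirus. Both groups carried this fusion, grew at 3% oxygen, were arrested in mitosis with 1 µM dimethylenastron (DME), an inhibitor of the kinesin Eg5, and were collected as detached mitotic cells. The 3 uninduced libraries came from cells without tamoxifen and the 3 induced libraries from cells expressing the activated oncogene for 4 days, and poly(A) RNA was sequenced. The labels give the inducing dose as 100 nM tamoxifen, whereas the study's methods give 100 ng/ml 4-hydroxytamoxifen unless stated otherwise. Which of these applied to the libraries is not known. The comparison addresses which transcripts differ between induced and uninduced cells in mitosis, and cells that stayed attached are not represented.

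The table numbers the libraries 1 to 3 in each group, and values are listed in that order. The study describes the experiment as independently repeated, but the labels do not tie the libraries to separate cultures, and p-values measure only the spread between these libraries. The files hold no read counts, and the study's alignment statistics are not among them, so no absolute depth is given. Steps between low FPKM values gave depths relative to the first uninduced library of 0.951 and 1.17 for the other uninduced libraries and 1.13, 0.848 and 0.972 for the induced ones.

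Collagens are triple helices of alpha chains, each chain made from its own gene. Fibrillar collagens assemble into the banded fibrils that give connective tissue its tensile strength, type IV collagen forms the sheet-like network of basement membranes, where types XV and XVIII are also found, and the remaining types coat fibrils, form beaded filaments, anchor epithelia or span the plasma membrane. Lung fibroblasts are a main source of interstitial collagen, and the chains are hydroxylated, folded and glycosylated in the endoplasmic reticulum, trimmed outside the cell and crosslinked by lysyl oxidases.

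After Ras activation, transcripts of COL1A2, the type IV chains COL4A1 and COL4A2, the type V chains COL5A1 and COL5A2, COL15A1 and COL16A1 were less abundant, whereas those of COL10A1 and COL13A1 were more abundant. Of the less abundant, only COL15A1 also passed the test in all 13 other fits. COL5A1 and COL16A1 passed in 6 of these fits, as many as COL1A1. In the induced cells, the mean level of the 5 main chains of types I, III and V (COL1A1, COL1A2, COL3A1, COL5A1 and COL5A2) was between 0.409 and 0.495 times the uninduced mean, although COL1A1 and COL3A1 did not pass the test. The less abundant type V chain COL5A3, which did not pass either, was at 1.60 times with overlapping groups, and COL15A1 was at 0.201 times. On the log2 scale the change of COL5A3 turned negative, to -0.014, without the second induced library. COL10A1 rose from a mean of 0.989 ± 0.677 FPKM (SD, n = 3) to 19.1 ± 4.10 FPKM (SD, n = 3). The mean levels of COL6A1 and COL6A2, both chains of type VI collagen, were 0.952 and 1.02 times those of the uninduced cells, and that of their partner chain COL6A3 was 0.725 times, below every uninduced value in each induced library but not past the threshold. In bulk RNA, fewer cells that express a gene and less of its RNA per cell cannot be told apart.

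All 13993 genes averaging 1 FPKM or more entered a limma fit of log2(FPKM + 1), and those with a Benjamini-Hochberg adjusted p of 0.05 or less are called altered. Of the 24 collagens 7 were altered and lower in induced cells, namely COL1A2, COL5A1, COL5A2, COL4A1, COL4A2, COL15A1 and COL16A1, beside 5.67% of all tested genes. COL10A1 and COL13A1, 2 of the 24, were altered and higher, beside 11.0% of all tested genes. COL10A1 entered the fit through its induced level alone, so its call and this count are given as description. The induced values lay all below the uninduced values for 12 of the 24 collagens (12.8% of all tested genes) and all above them for 2 (27.1% of all tested genes). The median log2 fold change of the 24 collagens was -0.31, that of all tested genes 0.10. The collagen median was -0.18 without the third induced library and -0.48 over the 21 collagens left by a filter of 5 FPKM. Fold changes on this scale understate the change of genes with low FPKM.

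By class, 3 of the 8 fibrillar collagens, 3 of the 6 basement membrane collagens and 1 of the 10 other collagens were altered and lower, beside 5.67% of all tested genes. Both that were higher belong to the 10 other collagens, beside 11.0% of all tested genes, so the counts of this class lie near the background. Without the second uninduced or the first induced library COL15A1 was the only collagen of any class altered and lower. The median log2 fold change was -1.15 for the fibrillar, -0.68 for the basement membrane and -0.040 for the other collagens. How the altered genes divided between higher and lower depended on library scaling. Of all tested genes, 1543 were higher and 793 lower in the deposited FPKM, 1044 and 1109 after quantile normalization, and 921 and 1101 after scaling to a common upper quartile. Under these scalings 8 and 9 collagens were altered and lower, and the same 2 were altered and higher. The median log2 fold change of the collagens was -0.38 under both, and that of all tested genes was 0.013 and 0.0047.

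**Figure D1:**
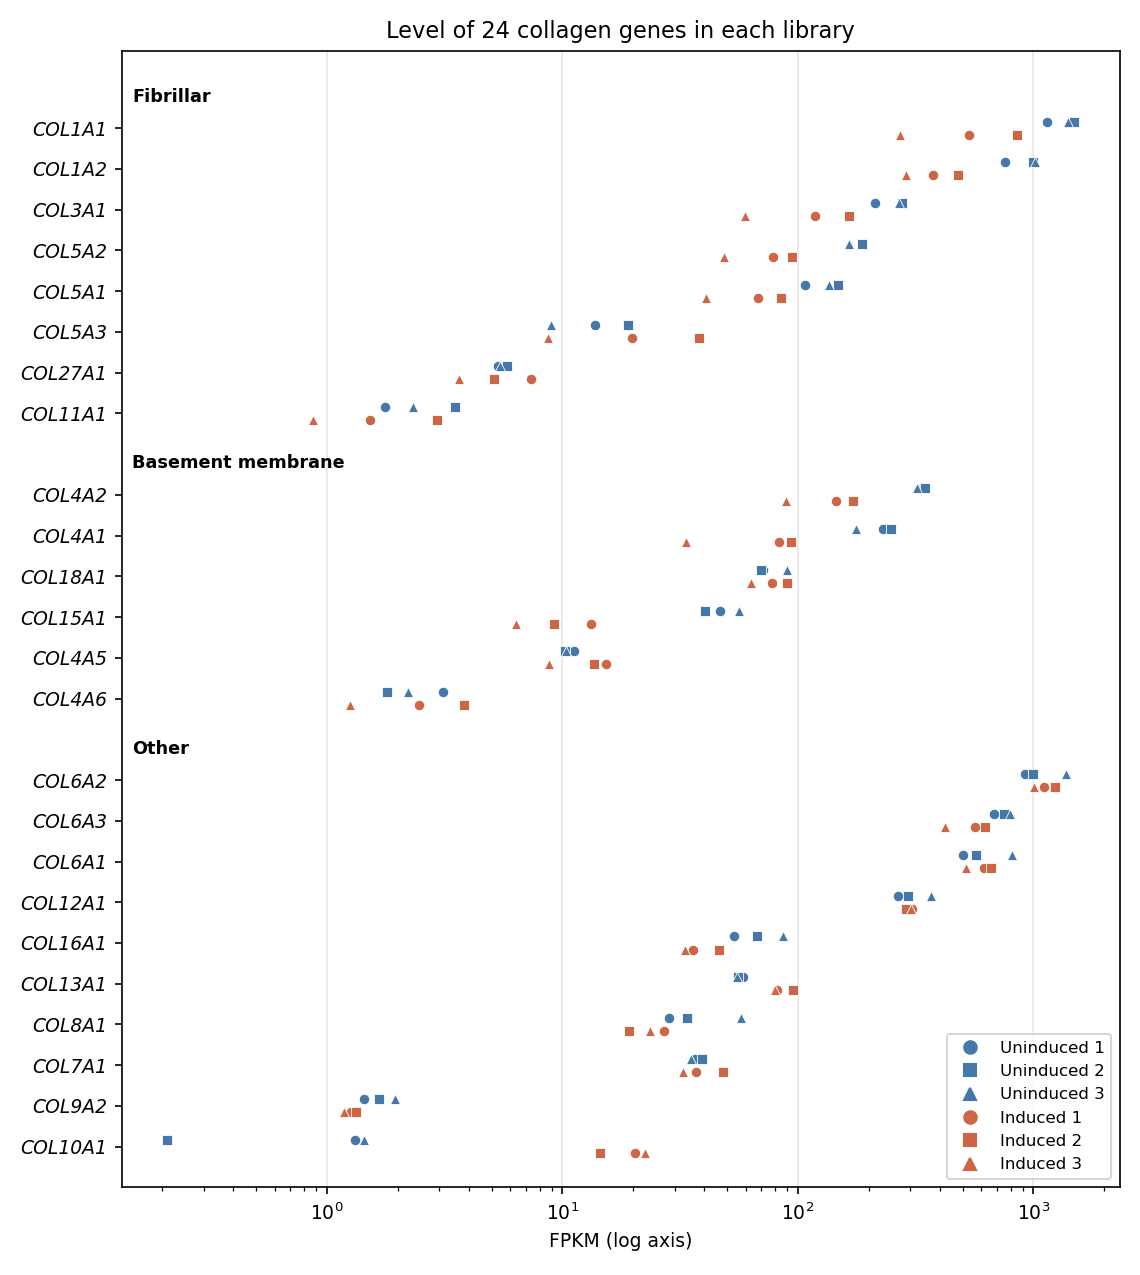
FPKM of the 24 collagen genes (log axis) in the 3 uninduced libraries (blue) and the 3 induced libraries (orange), a symbol for each library, grouped by class and ordered by the uninduced mean. The groups are apart for the main chains of types I, III, IV and V and for COL15A1, and COL10A1 is the only gene below 2 FPKM in every uninduced library and above 14 in every induced one.

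**Figure D2:**
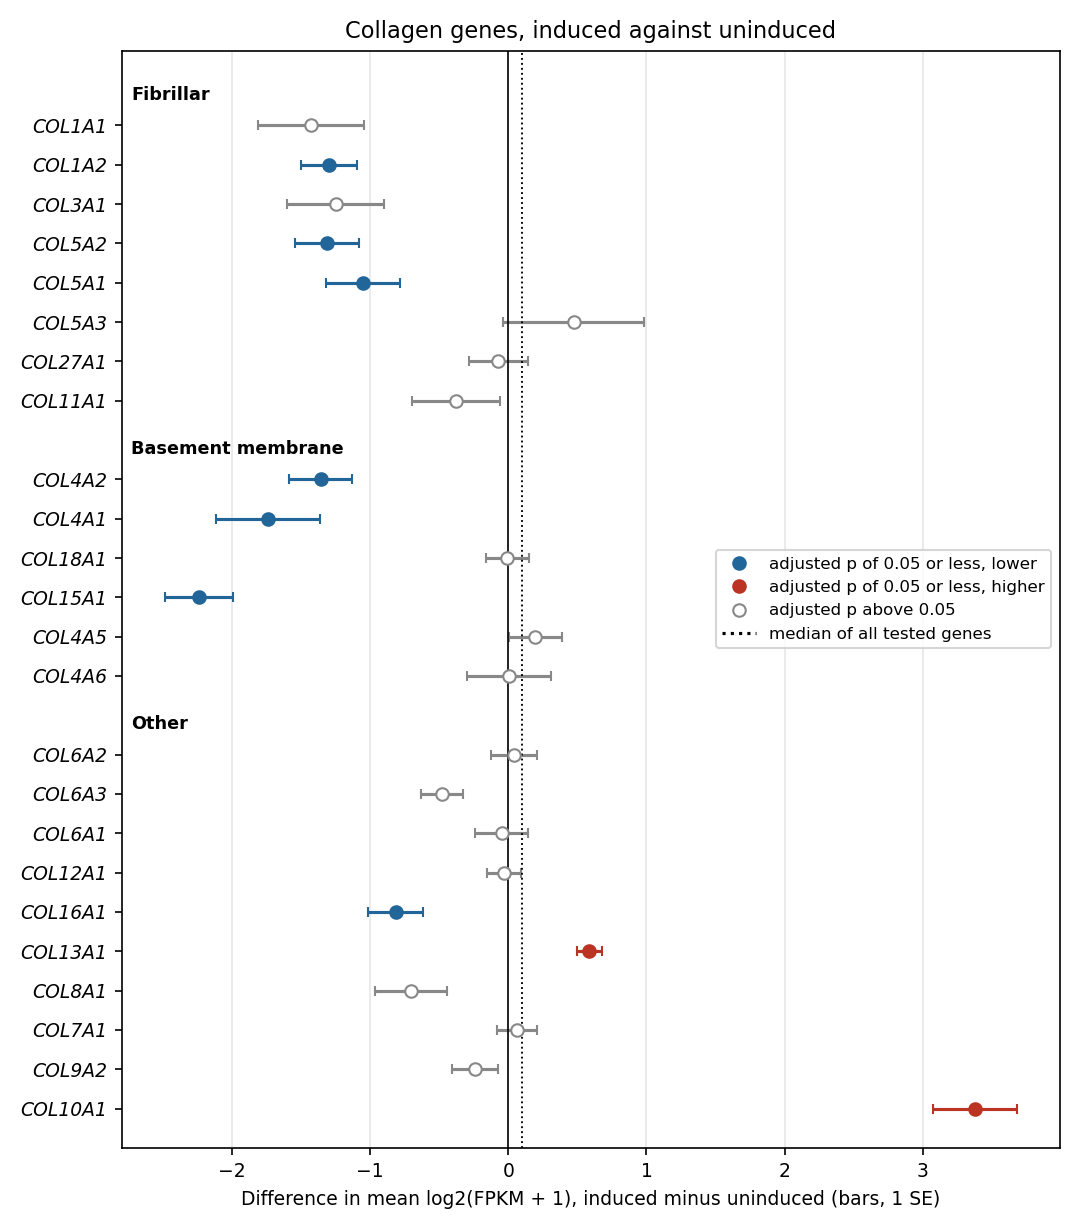
Difference in mean log2(FPKM + 1) between induced and uninduced libraries for each collagen gene, with bars of 1 SE from limma (n = 3 in each group). Filled points passed an adjusted p of 0.05, and the dotted line is the median of all tested genes, 0.10.

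The fibrillar class was led by type I collagen, the main fibril of skin, bone and tendon. COL1A1 (ENSG00000108821, chromosome 17 from 48261462 to 48278993) encodes its alpha 1 chain, all positions being those of GRCh37, and measured 1144, 1492 and 1398 FPKM in the uninduced and 531, 848 and 271 FPKM in the induced libraries. COL1A2 (ENSG00000164692, chromosome 7 from 94024207 to 94060539), which encodes the alpha 2 chain, had values of 759.9, 994 and 1017 FPKM without and 373, 476 and 289 FPKM with induction. For both chains each induced library lay below each uninduced one, and the third induced library was the lowest. COL1A2 fell with a log2 fold change of -1.30 (SE 0.20, adjusted p = 0.0101 from limma with Benjamini-Hochberg adjustment). COL1A1 had a log2 fold change of -1.43 (SE 0.39, adjusted p = 0.0501 from limma with Benjamini-Hochberg adjustment) and did not pass the threshold. COL1A1 had the highest uninduced mean of all 24 collagens, and COL6A2 the highest induced mean.

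Type III collagen, a homotrimer of lung, skin and vessel walls, is encoded by COL3A1 (ENSG00000168542, chromosome 2 from 189839099 to 189877472). It measured 213, 278 and 269.6 FPKM in uninduced and 118, 165 and 59.4 FPKM in induced cells. The groups did not overlap, and the lowest value was again that of the third induced library. COL3A1 had a log2 fold change of -1.25 (SE 0.35, adjusted p = 0.0553 from limma with Benjamini-Hochberg adjustment), which did not pass.

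Type V collagen is a minor component that starts fibrils and limits their diameter. COL5A1 (ENSG00000130635, chromosome 9 from 137533649 to 137736689) measured 108, 148 and 136 FPKM in uninduced and 67.9, 84.8 and 40.7 FPKM in induced libraries. For COL5A2 (ENSG00000204262, chromosome 2 from 189896624 to 190090038) the uninduced values were 186, 187 and 165 FPKM and the induced values 78.6, 94.6 and 48.8 FPKM. Neither gene had overlapping groups. COL5A1 fell with a log2 fold change of -1.05 (SE 0.27, adjusted p = 0.0429 from limma with Benjamini-Hochberg adjustment). COL5A2 fell with a log2 fold change of -1.31 (SE 0.23, adjusted p = 0.0142 from limma with Benjamini-Hochberg adjustment). A further chain of type V found in some tissues, COL5A3, measured 13.7, 19.0 and 8.90 FPKM and 19.7, 38.0 and 8.64 FPKM. Its groups overlapped, with the second induced library the highest and the third the lowest, and its log2 fold change was 0.47 (SE 0.51, adjusted p = 0.552 from limma with Benjamini-Hochberg adjustment). This fold change was -0.014 without the second and 0.99 without the third induced library.

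Both remaining fibrillar genes that passed the filter belong to types best known from cartilage and were low. COL27A1 measured 5.32, 5.81 and 5.43 FPKM in uninduced and 7.37, 5.10 and 3.64 FPKM in induced cells, with overlapping groups. COL11A1 ranged from 0.876 to 3.51 FPKM over the 6 libraries, also with overlap. Their log2 fold changes were -0.074 and -0.38, and neither passed the test. That of COL11A1 was -0.13 without the third and -0.67 without the second induced library. For COL27A1 it was 0.13 without the third and -0.29 without the first induced library.

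Some calls in this class were lost with a library left out, as were calls among all tested genes, of which 860 to 1872 then passed against 2336 with every library. Without the second uninduced library the log2 fold change of COL1A2 was -1.24 (adjusted p = 0.0576), and without the first induced library it was -1.30 (adjusted p = 0.0518, limma with Benjamini-Hochberg adjustment throughout, range over all alternatives 0.00576 to 0.0576). The adjusted p of COL5A2 from limma with Benjamini-Hochberg adjustment was 0.0652, 0.0706 and 0.0564 without the first uninduced, the second uninduced and the first induced library (range 0.00858 to 0.0706), at log2 fold changes of -1.29, -1.28 and -1.38. Among the fits with a library left out, COL5A1 kept its call only without the second induced one. With the uninduced libraries left out in turn its adjusted p from limma with Benjamini-Hochberg adjustment was 0.0876, 0.147 and 0.118, and without the first and the third induced library it was 0.109 and 0.0700 (range 0.0297 to 0.147). Its log2 fold changes in these fits lay between -1.19 and -0.76, the latter without the third induced library. The call of COL5A1 was also lost with no filter and no trend (adjusted p = 0.113 and 0.0582 from limma with Benjamini-Hochberg adjustment). Conversely, COL1A1 and COL3A1 passed without the second induced library, at adjusted p = 0.0331 and 0.0444 from limma with Benjamini-Hochberg adjustment. The ranges were 0.0331 to 0.162 for COL1A1 and 0.0389 to 0.171 for COL3A1. Both also passed with a pseudocount of 0.1, a filter of 5 FPKM or upper-quartile scaling.

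Among basement membrane collagens, COL4A1 and COL4A2 encode the chains that form the type IV network of nearly all tissues. COL4A1 (ENSG00000187498, chromosome 13 from 110801310 to 110959504) measured 229, 249 and 177 FPKM in uninduced and 82.9, 93.4 and 33.5 FPKM in induced cells. COL4A2 (ENSG00000134871, chromosome 13 from 110958159 to 111165556) measured 339.9, 348 and 319 FPKM and 145, 171 and 88.6 FPKM, respectively. Every induced value of each gene was below every uninduced value, with the third induced library lowest and the second highest among the induced. COL4A1 fell with a log2 fold change of -1.74 (SE 0.38, adjusted p = 0.0269 from limma with Benjamini-Hochberg adjustment). COL4A2 fell with a log2 fold change of -1.36 (SE 0.23, adjusted p = 0.0125 from limma with Benjamini-Hochberg adjustment).

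These genes lie head to head on opposite strands, and their annotated spans overlap by 1346 bases without shared exonic bases. Because they moved together, the 126 bases between their start sites in RefSeq are shown (GRCh38.p14, chr13:110307158-110307283, the plus strand, on which COL4A2 is transcribed), with capitals marking matches to CCAAT and GGGCGG on either strand.
COL4A1-COL4A2: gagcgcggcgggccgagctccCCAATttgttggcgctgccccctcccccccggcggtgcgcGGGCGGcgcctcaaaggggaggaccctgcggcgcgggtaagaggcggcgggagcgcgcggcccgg
Over the last 126 bases before the start of all 34943 promoters in the same table, CCAAT occurred in 21.1% and GGGCGG in 34.5%. A match is a description of the letters only.

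COL15A1 (ENSG00000204291, chromosome 9 from 101705461 to 101833074), which encodes a collagen with chondroitin sulfate chains that links basement membranes to the underlying fibrils, measured 46.5, 40.3 and 56.4 FPKM in uninduced and 13.2, 9.16 and 6.36 FPKM in induced libraries. The lowest uninduced value was 40.3 FPKM and the highest induced value 13.2 FPKM, so the groups were well apart. Its fall was the largest of the 24 collagens in the deposited scaling, with a log2 fold change of -2.24 (SE 0.25, adjusted p = 0.00386 from limma with Benjamini-Hochberg adjustment). It stayed altered in all 13 other fits (adjusted p 0.00189 to 0.0280 from limma with Benjamini-Hochberg adjustment). The 250 bases before its start site in RefSeq (GRCh38.p14, chr9:98943657-98943906, plus strand) are shown for this reason, with a match to GGGCGG in capitals.
COL15A1: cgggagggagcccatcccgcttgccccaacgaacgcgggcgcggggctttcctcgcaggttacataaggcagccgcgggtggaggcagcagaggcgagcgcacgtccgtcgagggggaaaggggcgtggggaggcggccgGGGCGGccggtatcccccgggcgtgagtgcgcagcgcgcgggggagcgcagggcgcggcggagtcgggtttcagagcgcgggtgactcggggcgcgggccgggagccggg
GGGCGG occurred on either strand in 42.5% of all promoters over the same 250 bases.

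COL18A1, the source of the fragment endostatin, measured 71.3, 69.9 and 90.0 FPKM in uninduced and 77.4, 89.8 and 63.3 FPKM in induced cells, with overlapping groups and a log2 fold change of -0.0087 (SE 0.16, 95% interval -0.38 to 0.36). Of its exonic bases 18.5% are shared with SLC19A1 on the other strand, which measured 62.5, 66.1 and 83.2 FPKM and 57.6, 69.6 and 60.6 FPKM, and the library kit did not mark strand, so reads from the shared bases cannot be told apart. COL4A5, which together with COL4A6 forms the type IV chains of kidney, skin and smooth muscle, measured 11.2, 10.2 and 10.4 FPKM and 15.3, 13.6 and 8.79 FPKM. Its groups overlapped, and the third induced library was the lowest of all 6. COL4A6 ranged from 1.25 to 3.81 FPKM. The log2 fold changes of COL4A5 and COL4A6 were 0.19 and 0.0030, and neither passed the test; that of COL4A6 turned negative under both other scalings. That of COL4A5 was 0.099 and 0.093 under them, 0.046 without the first and 0.41 without the third induced library.

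The type IV calls were also lost in some fits with a library left out. With no filter the call of COL4A1 was lost too (adjusted p = 0.0794 from limma with Benjamini-Hochberg adjustment). The adjusted p of COL4A2 from limma with Benjamini-Hochberg adjustment was 0.0593, 0.0653 and 0.0507 without the first uninduced, the second uninduced and the first induced library (range over all alternatives 0.00756 to 0.0653). That of COL4A1 was 0.0972, 0.108 and 0.0624 without each uninduced library in turn and 0.0696 without the first induced one (range 0.0142 to 0.108), again from limma with Benjamini-Hochberg adjustment. The log2 fold changes in these fits were -1.44 to -1.33 for COL4A2 and -1.93 to -1.64 for COL4A1.

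Type VI collagen, which forms beaded microfilaments around cells, was the most abundant of the other class. COL6A2 measured 925, 993 and 1372 FPKM in uninduced and 1105, 1233 and 1006 FPKM in induced libraries. COL6A1 measured 504, 569 and 813 FPKM and 618, 662 and 515 FPKM. For both chains the groups overlapped and the third uninduced library was the highest. COL6A3, whose large alpha 3 chain joins the other chains in the monomer, measured 678, 751 and 792 FPKM and 564, 623 and 422 FPKM. Here each induced library was below each uninduced one, but the log2 fold change of -0.48 (SE 0.15, -0.32 without the third induced library) did not pass (adjusted p = 0.0781 from limma with Benjamini-Hochberg adjustment). COL6A1 and COL6A2 had log2 fold changes of -0.049 (95% interval -0.51 to 0.41) and 0.041 (95% interval -0.35 to 0.43), the latter turning negative with upper-quartile scaling.

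Among the tested collagens that coat fibrils, COL16A1 passed the threshold, whereas COL12A1 and COL9A2 did not, and differences between them were not tested. COL12A1, found on type I fibrils of dense connective tissue, measured 266, 293 and 366 FPKM in uninduced and 305, 288 and 303 FPKM in induced cells. COL16A1 (ENSG00000084636, chromosome 1 from 32117864 to 32169920), a minor chain bound to fibrils and microfibrils, measured 53.3, 67.3 and 86.2 FPKM and 35.9, 46.2 and 33.0 FPKM. The groups overlapped for COL12A1 and were apart for COL16A1, and the log2 fold change of COL12A1 was -0.032 (SE 0.12). COL16A1 fell with a log2 fold change of -0.82 (SE 0.20, adjusted p = 0.0374 from limma with Benjamini-Hochberg adjustment). Its call was lost with no filter and with no trend (adjusted p = 0.0974 and 0.0529 from limma with Benjamini-Hochberg adjustment). The call was lost too without the second or the third uninduced library (adjusted p = 0.121 and 0.0807 from limma with Benjamini-Hochberg adjustment). It was also lost without any induced library in turn, at adjusted p = 0.122, 0.0537 and 0.131 from limma with Benjamini-Hochberg adjustment (range over all alternatives 0.0260 to 0.131), and its log2 fold change in these fits was -0.95 to -0.64. COL9A2, a cartilage chain, ranged from 1.18 to 1.95 FPKM with a log2 fold change of -0.24.

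COL7A1, the anchoring fibril of the dermal-epidermal junction, measured 36.5, 39.2 and 35.1 FPKM in uninduced and 36.9, 48.0 and 32.6 FPKM in induced libraries. COL8A1, a short-chain network collagen of vessel walls and Descemet's membrane, measured 28.4, 34.0 and 57.4 FPKM and 27.1, 19.1 and 23.5 FPKM. The groups of COL7A1 overlapped, whereas the highest induced value of COL8A1, 27.1 FPKM, lay just under its lowest uninduced value. Neither passed, with log2 fold changes of 0.064 for COL7A1, negative under both other scalings, and -0.71 for COL8A1, which was -0.42 without the third uninduced library.

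COL13A1 (ENSG00000197467, chromosome 10 from 71561636 to 71724031), which encodes a transmembrane collagen of cell adhesion sites, measured 58.7, 55.6 and 55.2 FPKM in uninduced and 81.2, 95.6 and 79.8 FPKM in induced libraries. All induced values were higher, and the uninduced values were close to each other. COL13A1 rose with a log2 fold change of 0.59 (SE 0.092, adjusted p = 0.0102 from limma with Benjamini-Hochberg adjustment). COL10A1 (ENSG00000123500, chromosome 6 from 116440072 to 116479910), which encodes the short-chain collagen of hypertrophic cartilage, measured 1.32, 0.210 and 1.44 FPKM and 20.3, 14.5 and 22.4 FPKM. Here the uninduced libraries were near or under 1 FPKM and all induced ones far above, so the gene passed the filter through the induced group and its test is not independent of that filter. COL10A1 rose with a log2 fold change of 3.38 (SE 0.30, adjusted p = 0.00242 from limma with Benjamini-Hochberg adjustment), and its mean FPKM was 19.3 times the uninduced mean. In the fit with no filter its adjusted p was 0.0127 (limma with Benjamini-Hochberg adjustment, range over all alternatives 0.00142 to 0.0233). Both genes stayed altered in all 13 other fits (adjusted p 0.00778 to 0.0488 for COL13A1, from limma with Benjamini-Hochberg adjustment).

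COL10A1 lies within NT5DC1 on the opposite strand, with no shared exonic bases. NT5DC1 measured 14.8, 9.42 and 12.6 FPKM in uninduced and 14.6, 9.71 and 15.8 FPKM in induced libraries, with overlapping groups and a log2 fold change of 0.11 (SE 0.22). Since COL10A1 and COL13A1 were the collagens that rose, the 250 bases before a start site of each in RefSeq are shown (GRCh38.p14), for COL13A1 chr10:69801656-69801905 on the plus strand and for COL10A1 chr6:116126133-116126382 on the minus strand, the start nearest the end of the gene among its 3. Capitals mark matches to TATAAA and CCAAT on either strand.
COL13A1: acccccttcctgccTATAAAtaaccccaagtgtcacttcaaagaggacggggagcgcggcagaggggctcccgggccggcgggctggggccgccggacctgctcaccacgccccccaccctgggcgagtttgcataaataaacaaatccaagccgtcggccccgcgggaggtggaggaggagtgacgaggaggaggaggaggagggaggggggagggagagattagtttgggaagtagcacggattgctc
COL10A1: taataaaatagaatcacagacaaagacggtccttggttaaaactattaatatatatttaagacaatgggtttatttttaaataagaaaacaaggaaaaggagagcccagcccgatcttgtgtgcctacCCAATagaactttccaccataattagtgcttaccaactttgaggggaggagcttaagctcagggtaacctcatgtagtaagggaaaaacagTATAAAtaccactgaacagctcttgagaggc
The TATAAA match of COL10A1 begins 31 bases before its start site, that of COL13A1 236 bases before. TATAAA occurred in 10.8% and CCAAT in 32.0% of all promoters over these 250 bases.

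Of the 24 collagens 18 matched an entry in this promoter table by symbol, with 23 start sites, and COL1A1, COL1A2, COL3A1, COL5A2, COL6A1 and COL8A1 have none there. Over the 250 bases before the start, on either strand, GGGCGG was found at 16 of the 23 start sites, CCAAT at 8, TATAAA at 6 and TGANTCA, the letters of an AP-1 element, at 1. Some of these windows share letters, since the COL5A1 start sites are 2 bases apart and COL4A1 and COL4A2 share the stretch shown. A window of COL4A5 and one of COL4A6 also overlap. Both hold CCAAT, and whether this is the same match was not examined. By gene, GGGCGG was found in any window of 14 of the 18 collagens, CCAAT of 7, TATAAA of 5 and TGANTCA of 1. Counted by start site, the shares among all promoters were 42.5%, 32.0%, 10.8% and 6.59%. The counts by gene have no such background here, since genes with several start sites had more chances of a match. COL10A1 accounted for 2 of the TATAAA sites and for the TGANTCA site.

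Summed over all 50 entries, collagen transcripts amounted to 5691, 6654 and 7241 FPKM in the uninduced and 4332, 5131 and 3364 FPKM in the induced libraries. The sum was lower in each induced library than in each uninduced one, and the ratio of group means was 0.655. The fibrillar sum was 2854 ± 371 FPKM (SD, n = 3) in uninduced and 1212 ± 497 FPKM (SD, n = 3) in induced cells, a ratio of 0.425. For basement membrane collagens the sums were 691 ± 32.6 and 306 ± 93.2 FPKM (SD, n = 3 each), a ratio of 0.443. Both classes had no overlap between groups. The other collagens summed to 2983 ± 534 and 2757 ± 299 FPKM (SD, n = 3 each) with overlapping groups, and their ratio of 0.924 became 1.03 without the third uninduced library. No test was made on these sums.

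The composition of the collagen transcripts differed between groups. Type VI chains made up 37.04, 34.8 and 41.1% of the summed collagen FPKM in the uninduced and 52.8, 49.1 and 57.8% in the induced libraries. Type I chains made up 33.5, 37.4 and 33.4% and 20.9, 25.8 and 16.6%, respectively. The share of type VI was higher and that of type I lower in every induced library. COL4A1 and COL4A2 together took 8.60 ± 1.60% (SD, n = 3) in uninduced and 4.68 ± 0.915% (SD, n = 3) in induced cells. A factor common to a library cancels in these shares, and each depends on the other members of the sum.

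**Figure D3:**
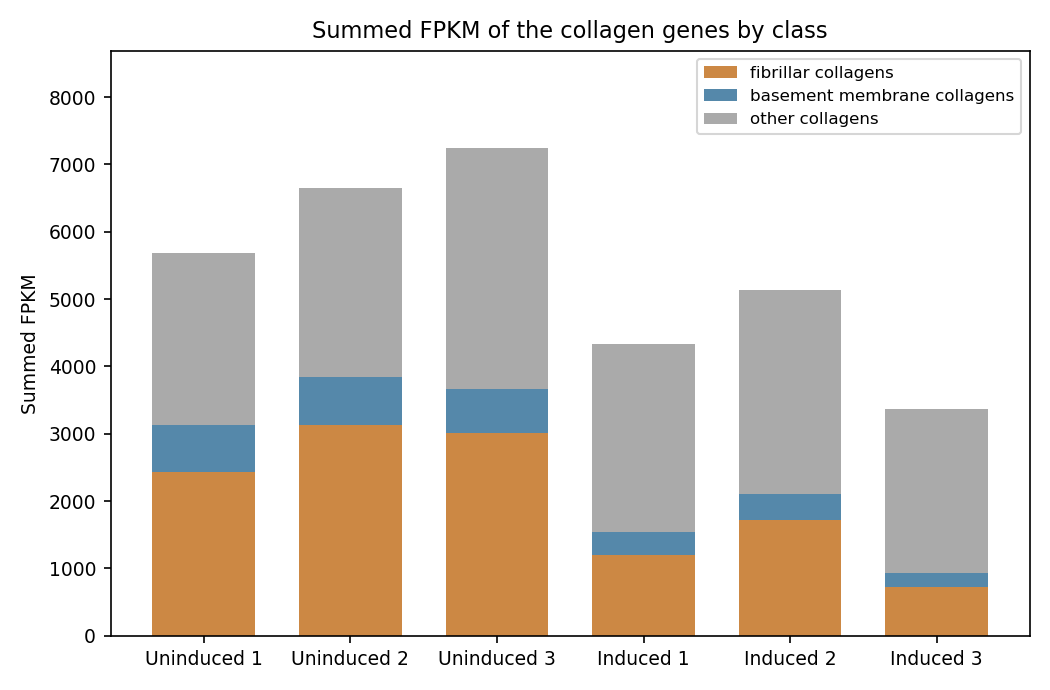
Summed FPKM of the fibrillar, basement membrane and other collagens in each library, as stacked bars. The fibrillar part has a mean of 2854 FPKM in uninduced and 1212 FPKM in induced libraries, whereas the part of the other collagens overlaps between groups, with a ratio of means below 1 that turns above 1 without the third uninduced library.

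Chains that assemble into a common trimer were compared by the log2 ratio of their FPKM, as a description without a test. The ratio of COL1A1 to COL1A2 was 0.59, 0.59 and 0.46 in the uninduced and 0.51, 0.83 and -0.094 in the induced libraries. The uninduced libraries were close together, whereas the second induced library was the highest and the third the only one with less COL1A1 than COL1A2. The difference of the group means, -0.13, became 0.13 without that library. The ratio of COL4A1 to COL4A2 was -0.57, -0.48 and -0.85 and -0.81, -0.87 and -1.40, with overlap and the third induced library again the lowest. For COL6A1 to COL6A2 the means were -0.81 ± 0.060 (SD, n = 3) in uninduced and -0.90 ± 0.064 (SD, n = 3) in induced cells, also with overlap.

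In the remaining pairs of chains the groups did not overlap. The log2 ratio of COL6A3 to COL6A1 was 0.43, 0.40 and -0.037 in uninduced and -0.13, -0.087 and -0.29 in induced libraries. All induced values were lower, but the gap between the third uninduced and the second induced library was small. The ratio of COL5A1 to COL5A2 was -0.79, -0.34 and -0.28 and -0.21, -0.16 and -0.26, all induced values being higher, and the gap between the third uninduced and the third induced library was small. The difference of the means for this pair was 0.26, and 0.099 without the first uninduced library.

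**Figure D4:**
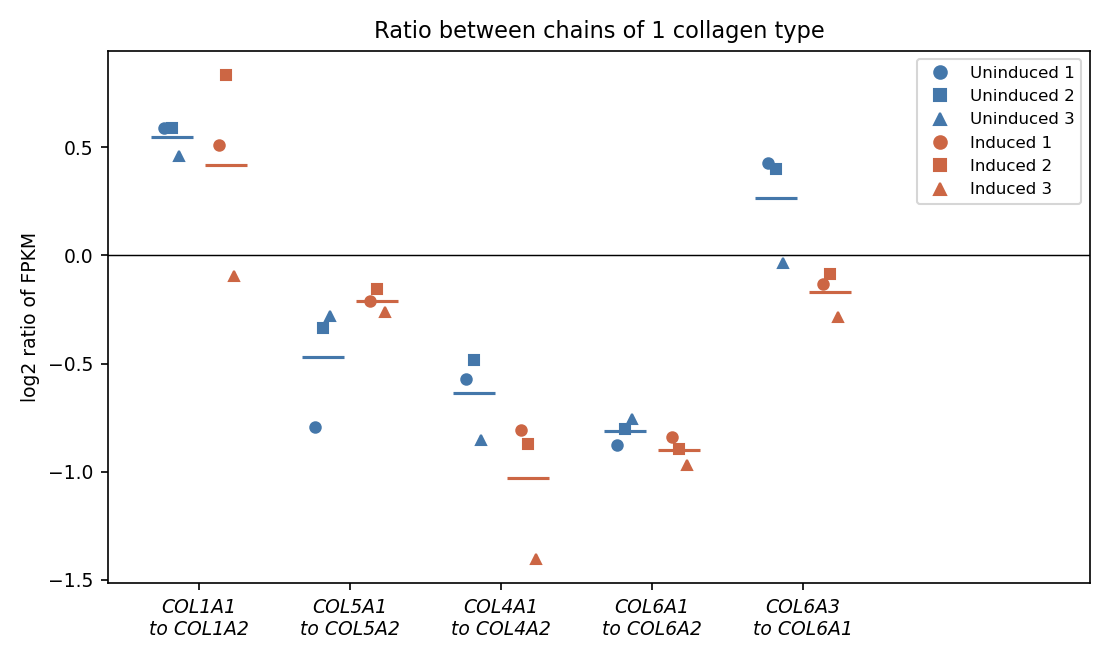
Log2 ratio of FPKM between chains of a collagen type in each library (symbols) with the group means (lines). Uninduced libraries are blue and induced libraries orange, and the ratio of COL6A3 to COL6A1 has a mean of 0.26 in uninduced and -0.17 in induced libraries.

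The induced libraries differed from each other in collagen levels. The third was the lowest of the induced libraries for 21 of the 24 genes and the second the highest for 18. The highest induced value of COL1A1 was 3.13 times the lowest, against 1.30 times among the uninduced libraries, and for COL4A1 these ratios were 2.79 and 1.40. Leaving the third induced library out left 5 collagens altered and lower (COL1A2, COL4A1, COL4A2, COL5A2 and COL15A1), leaving the second out left 8 and leaving the first out left COL15A1 alone. Of all 13993 tested genes 341, 524 and 407 were altered and lower in these fits, against 793 with every library. Without each uninduced library in turn, in order, the numbers were 3, 1 and 4 collagens, beside 353, 335 and 710 of all tested genes. COL10A1 and COL13A1 were altered and higher each time. The relative depths of the induced libraries are given above, and their part in this difference was not tested.

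The 20 collagen genes under a mean of 1 FPKM were COL2A1, COL11A2 and COL24A1 of the fibrillar class, COL4A3 and COL4A4 of basement membranes, and COL6A5, COL6A6, COL8A2, COL9A1, COL9A3, COL14A1, COL17A1, COL19A1, COL20A1, COL21A1, COL22A1, COL23A1, COL25A1, COL26A1 and COL28A1. Their means ranged from 0 to 0.976 FPKM, and COL6A5, COL20A1 and COL26A1 were listed at 0 in all 6 libraries. The members nearest the limit were COL9A2, at 1.47 FPKM just inside, and COL14A1, at 0.976 FPKM just outside. COL14A1, which coats fibrils, measured 2.66, 1.19 and 1.22 FPKM in uninduced and 0.336, 0.151 and 0.303 FPKM in induced libraries. It entered only the fit with no filter and was not altered there.

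Other genes of the collagen pathway were taken from lists by function. Of 20 tested genes that fold or modify collagen in the endoplasmic reticulum or export it, 3 were altered, all lower (beside 5.67% of all tested genes), with a median log2 fold change of -0.085. The galactosyltransferase COLGALT1 measured 82.2, 92.3 and 86.7 FPKM in uninduced and 48.2, 60.3 and 49.4 FPKM in induced cells, a log2 fold change of -0.72. LEPREL1 (now P3H2), a prolyl 3-hydroxylase of type IV collagen, had a log2 fold change of -0.97, and the coat protein SEC23A -0.27. The call of LEPREL1 was lost without the first or second uninduced or the first or the third induced library (adjusted p of 0.0555 to 0.0670 from limma with Benjamini-Hochberg adjustment). SEC23A passed in the deposited FPKM and under both other scalings, and in none of its 11 remaining fits (adjusted p of 0.0511 to 0.130 from limma with Benjamini-Hochberg adjustment), those with any library left out among them. The number lower was 5 after quantile normalization, 6 with upper-quartile scaling and 2 with no filter or no trend. Without the third uninduced library 2 genes of this list were lower and 2 higher, and without any other 1 to 4 were lower.

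Of 9 tested genes for trimming and crosslinking outside the cell, 6 were altered, all lower (beside 5.67% of all tested genes), with a median of -0.71. LOX, which crosslinks collagen and elastin, measured 238, 253 and 322 FPKM in uninduced and 87.3, 76.5 and 52.8 FPKM in induced libraries, and LOXL1 of the same family measured 85.2, 98.8 and 119 FPKM and 43.6, 40.3 and 40.8 FPKM. All induced values of both lay below all uninduced ones, with log2 fold changes of -1.91 and -1.25 (adjusted p = 0.00368 and 0.00305 from limma with Benjamini-Hochberg adjustment). ADAMTS2, which removes the amino-terminal propeptide of fibrillar procollagens, had a log2 fold change of -1.08. Its call held without the second induced library and was lost without any other (adjusted p of 0.0752 to 0.157 from limma with Benjamini-Hochberg adjustment), and it was also lost with no filter (0.122) and with no trend (0.0624). The number of these genes that were lower was 5 without the second induced library and 2 without any other, 3 with no filter and 4 with no trend, and 1 was higher without the third uninduced library.

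Of 8 tested proteoglycans and glycoproteins that bind fibrils, 4 were lower and 1 higher (beside 5.67% and 11.0% of all tested genes), with a median of -0.85. Decorin (DCN), a small proteoglycan on the surface of type I fibrils, measured 184, 234 and 335 FPKM in uninduced and 25.1, 28.2 and 20.8 FPKM in induced libraries, and lumican (LUM), of the same family, 43.3, 47.2 and 58.0 FPKM and 15.1, 13.4 and 7.30 FPKM. Both fell without overlap, by 3.26 and 2.01 on the log2 scale. SPARC, a collagen-binding glycoprotein, had a log2 fold change of -1.59, and its call was lost without any uninduced or the first induced library (adjusted p of 0.0600 to 0.0970 from limma with Benjamini-Hochberg adjustment) and with no filter (0.0703). THBS2 was the gene that rose, with a log2 fold change of 0.96. Without the first or second uninduced library, or with no filter, 2 genes of this list were lower. FMOD, the fourth, entered the fit through its uninduced level alone, and with a filter of 5 FPKM the number was 3.

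Of 8 tested collagen receptors, ITGA1 was lower, at a log2 fold change of -1.44, and ITGA2 higher, at 0.89, beside 5.67% and 11.0% of all tested genes, so that 1 of 8 in each direction is near that background. The median was -0.12, and 2 receptors were lower under both other scalings and with a filter of 5 FPKM. ITGA1, which pairs with beta 1 integrin and favours type IV collagen, measured 60.5, 57.7 and 33.2 FPKM in uninduced and 21.2, 23.3 and 10.4 FPKM in induced cells. ITGA2, which favours type I collagen, measured 55.6, 43.9 and 50.0 FPKM and 109.6, 74.5 and 98.4 FPKM. Both lost the call without single libraries, ITGA1 with no filter (0.0992) and without any library but the third uninduced (adjusted p of 0.0629 to 0.132) and ITGA2 without the second uninduced, first induced or the third induced (0.0580 to 0.0692, both from limma with Benjamini-Hochberg adjustment).

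Of 11 tested genes that degrade collagen, 6 were altered, all higher (beside 11.0% of all tested genes), with a median of 0.60. The interstitial collagenase MMP1, which cleaves fibrils of types I and III, measured 408, 373 and 401 FPKM in uninduced and 2629.9, 3139 and 3348 FPKM in induced libraries, without overlap. It rose with a log2 fold change of 2.94 (SE 0.11, adjusted p = 0.000120 from limma with Benjamini-Hochberg adjustment). CTSK, a lysosomal collagenase, and MMP16, a membrane-bound protease, had log2 fold changes of 1.17 and 1.11. The call of CTSK held without the third uninduced library and was lost without any other (adjusted p of 0.0714 to 0.110 from limma with Benjamini-Hochberg adjustment), and it was also lost with no filter (0.0788). The number of these genes that were higher was 3 without the first uninduced library and 4 to 7 without each of the others, 4 with no filter and 5 under both other scalings or with no trend.

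**Figure D5:**
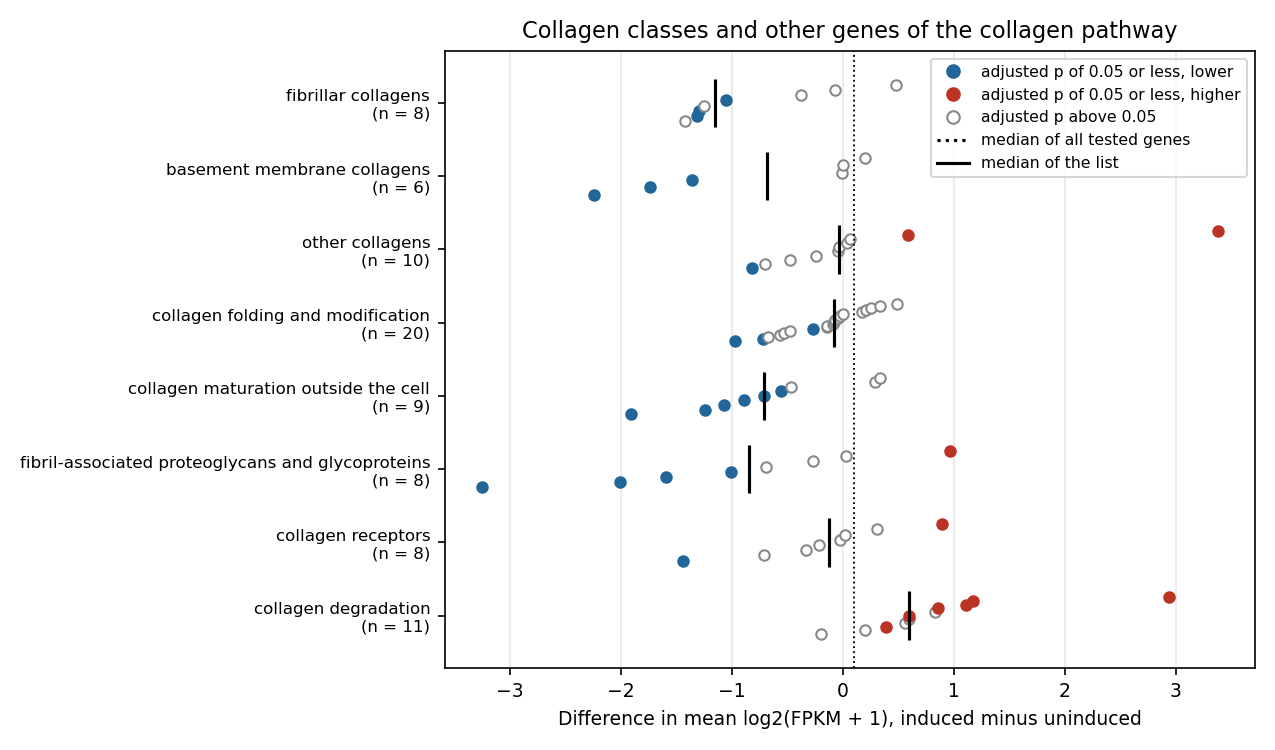
Difference in mean log2(FPKM + 1), induced minus uninduced, for each tested gene of the collagen classes and of the other pathway lists, with list medians (black lines). Filled points passed an adjusted p of 0.05, and the medians range from -1.15 for the fibrillar collagens to 0.60 for degradation, with 0.10 for all tested genes (dotted line).

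Markers of cell types and of mitosis were read beside these results. All 10 fibroblast markers were above 1 FPKM, led by VIM, and their sum was 2859, 2827 and 2736 FPKM in uninduced and 2546, 3156 and 2827 FPKM in induced libraries, with 2 markers lower (THY1, FBN1) and 2 higher (PRRX1, TWIST1), beside 5.67% and 11.0% of all tested genes, against 1 lower and 1 higher without the second uninduced library, 1 lower and 2 higher without the first or the third induced one, and 2 lower and 3 higher without the third uninduced one. The 8 smooth muscle markers summed to 463, 526 and 520.3 FPKM and 238, 258 and 315 FPKM. SMTN led them in the mean of all libraries, and ACTG2 led them in every uninduced library. Each induced sum was lower than each uninduced one, and 4 of the 6 tested genes were altered, all lower (ACTG2, CNN1, LMOD1 and MYOCD, beside 5.67% of all tested genes), also with any library left out. LMOD1 and MYOCD entered the fit through their uninduced levels alone, and with a filter of 5 FPKM the number was 2. The 12 mitotic markers, led by CCNB1, summed to 2075, 2076 and 2174 FPKM and 1649, 1809 and 1768 FPKM, again lower in every induced library, with 7 altered, all lower (beside 5.67% of all tested genes), at log2 fold changes between -0.81 (KIF20A) and -0.27 (PLK1). This number was 1 without the first uninduced, the second uninduced or the third induced library, 2 and 3 without the first and the second induced, and 5 without the third uninduced, and it was 2 with no filter and 3 with no trend. The summed smooth muscle and mitotic markers were thus lower in induced cells, as were the collagens that fell, although SMTN and MYH11 of the former and CCNB1, CDK1, AURKA, AURKB and CDC20 of the latter did not pass. The part of these markers in the fall of the collagens was not tested.

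Markers of other cell types were low. The 8 epithelial markers, led by KRT5, summed to 24.6, 38.9 and 26.4 FPKM in uninduced and 23.6, 26.1 and 27.8 FPKM in induced libraries, with adjusted p from 0.482 to 0.877 for the 4 tested (from limma with Benjamini-Hochberg adjustment), and CDH1 stayed below 0.3 FPKM. EPCAM, also not tested, measured 1.05, 0.880 and 1.80 FPKM and 0.272, 0.167 and 0.424 FPKM, lower in every induced library. The groups of the other untested epithelial markers overlapped. Of 8 endothelial markers, led by TEK at a mean of 10.1 FPKM, PECAM1 and EMCN were listed at 0 in every library. The sum of the 8 was 17.4, 15.6 and 17.5 FPKM in uninduced and 9.87, 8.22 and 10.6 FPKM in induced libraries. Of the 2 tested, TEK was lower and TIE1 higher, beside 5.67% and 11.0% of all tested genes. The call of TIE1 was lost under both other scalings, with no filter, with no trend and without the first uninduced, the second uninduced, the first induced or the third induced library (adjusted p of 0.0518 to 0.144 from limma with Benjamini-Hochberg adjustment in these fits). The leukocyte markers, led by CD68, summed to 27.8, 26.0 and 31.3 FPKM and 31.1, 34.3 and 36.3 FPKM, and CD3E, MS4A1 and ITGAM were listed at 0 throughout. Chondrocyte markers, read because COL10A1 is a cartilage gene, summed to 18.6, 17.2 and 25.0 FPKM and 25.0, 16.7 and 18.5 FPKM. The median log2 fold change of the 3 tested was 0.72. SOX9, a transcription factor of chondrocytes, measured 1.06, 1.15 and 1.48 FPKM and 3.72, 1.83 and 2.71 FPKM, higher in every induced library, with a log2 fold change of 0.72 (adjusted p = 0.0724, and 0.0420 without the second induced library, from limma with Benjamini-Hochberg adjustment). HAPLN1 had a log2 fold change of 0.88 with overlapping groups, and MATN3, which supplied most of the sum, -0.33. The part of these markers in the level of COL10A1 was not tested. LECT1 was listed at 0, and COL2A1 and COL9A1 were below 0.1 FPKM in every library.

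Some collagen genes are neighbours in the genome. COL3A1 and COL5A2 lie tail to tail on chromosome 2, 19151 bases apart, with log2 fold changes of -1.25 and -1.31. COL6A1 and COL6A2, on the same strand of chromosome 21 and 93061 bases apart, had values of -0.049 and 0.041. COL4A6 and COL4A5 lie head to head on chromosome X, 340 bases apart, at 0.0030 and 0.19. Differences within these pairs were not tested.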

How the data were processed

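RNA-seq covered 6 libraries, 3 in each group. Per the labels and the study's methods, the authors trimmed reads (Trim Galore 0.3.0), aligned them by TopHat2 against hg19 using Ensembl junctions, and deposited Cufflinks FPKM per gene. The authors' Cuffdiff table and 18 unnamed columns were not used. A repeated header line was dropped, and 120 entries with more than 6 values were left out, none a collagen. Columns name a group and a number, not a sample.

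The comparison used limma 3.58.1 in R 4.3.3 (lmFit, then eBayes with trend set, two-sided) on log2(FPKM + 1), with Benjamini-Hochberg adjustment over 13993 genes. On simulated data with 200 changed genes, the fit called 130 of them and 8 unchanged genes. That simulation drew noise for each gene independently, with no shift common to a library. Positions are from GENCODE 44 lifted to GRCh37, promoters from RefSeq on GRCh38.p14. Tables and figures used Python 3.11.15, pandas 2.3.3, numpy 2.4.6 and matplotlib 3.10.9. All collagens at 1 FPKM or more are named, with each library's value from 5 FPKM in either group or where altered, and from each pathway list up to 3 altered genes with the largest rise and up to 3 with the largest fall. COL14A1, COL22A1, FMOD, SOX9, HAPLN1, EPCAM, SLC19A1, NT5DC1 and marker genes named beside a count were chosen after their values were seen. The members and lists were chosen with earlier results of these data known. Alternatives were a pseudocount of 0.1, no filter, a filter of 5 FPKM, quantile and upper-quartile scaling, no trend, a replicate block, a call that also needs a log2 fold change past 1 in size, sums without the most abundant entry, and each library left out. Alternatives for chain ratios, named pathway genes and marker counts were chosen after seeing the data.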

Additional observations from a re-analysis of the deposited data

How the results depend on the processing

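Of the 24 collagens under each alternative, 273 of 333 values kept their direction and their side of the threshold, 29 lost and 10 gained the call, and 21 changed sign, all of genes that did not pass. Of the 2336 altered genes, 548 also had a log2 fold change past 1 in size (311 higher and 237 lower), which left 6 collagens lower and 1 higher, COL10A1. Without a filter 1518 genes were altered, 960 of them higher, and 4 collagens were lower (COL1A2, COL4A2, COL5A2 and COL15A1); COL22A1, at most 0.165 FPKM in any library, was then also higher. That fit tested 29362 genes. It also lost COL4A1, COL5A1 and COL16A1 (adjusted p = 0.0794, 0.113 and 0.0974 from limma with Benjamini-Hochberg adjustment, ranges in the report), and a fit with no trend lost COL5A1 and COL16A1 (0.0582 and 0.0529). Upper-quartile scaling left 921 genes higher, and the cause was not tested. With a library left out, and so fewer samples, 860 to 1872 genes were altered, 519 to 1162 higher and 335 to 710 lower, and 1 to 8 collagens were lower. The ratio of the summed other collagens was then 0.863 to 1.03. The summed collagen ratio of 0.655 was 0.605 with upper-quartile scaling, 0.582 without COL6A2, the most abundant, and 0.589 to 0.725 with a library left out.

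The log2 fold change of COL4A6 was -0.025 with a pseudocount of 0.1, -0.076 with quantile and -0.074 with upper-quartile scaling, all opposite in sign to the reported value. That of COL7A1 was -0.049 and -0.043 under these scalings, and that of COL6A2 -0.070 with upper-quartile scaling. With a library left out the sign of 8 genes changed in at least 1 case, the values running from -0.13 to 0.12 for COL18A1, -0.26 to 0.29 for COL4A6, -0.014 to 0.99 for COL5A3, -0.29 to 0.13 for COL27A1, -0.071 to 0.21 for COL6A2, -0.19 to 0.15 for COL6A1, -0.13 to 0.099 for COL12A1 and -0.088 to 0.18 for COL7A1. The cause was not tested.

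Fitting the number in the column names as a replicate block gave 2310 altered genes, 1466 of them higher and 844 lower; 8 collagens were lower, COL1A1 (range given above, here adjusted p = 0.0456 from limma with Benjamini-Hochberg adjustment) among them, and 2 higher. Genes lost in that fit include SEC23A (adjusted p = 0.0644) and PLK1 (0.0643), and 5 maturation genes were lower and 5 degradation genes higher. Across genes, which are not independent replicates, departures from the group mean correlated between libraries of equal number at -0.00266, 0.0433 and 0.0481. Libraries numbered 2 and 3 correlated best with their own number, whereas uninduced library 1 correlated best with induced library 2, at 0.0311. Departures from a mean of 3 libraries depend on each other, so such small values cannot decide whether equal numbers mark a shared repeat. The files hold no read counts, so no depth is given behind low values such as the uninduced COL10A1.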
